A study of Homo sapiens with 5 samples.

Results

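The hnRNP and SR splicing factors described here are 34 genes: 20 of heterogeneous nuclear ribonucleoproteins (hnRNPs), 12 of serine- and arginine-rich (SR) proteins, and CIRBP and RBM3, which are cold-inducible RNA-binding proteins. They were chosen by name from 43172 genes with an annotated transcript in the files. The study sequenced total RNA of WI-38, a human diploid lung fibroblast line that stops dividing after a limited number of doublings. There were 5 libraries: late-passage cells at population doubling level (PDL) 55, PDL 15 cells with siRNA against AUF1, PDL 15 cells with siRNA against HuR, PDL 15 cells with a control siRNA, and untransfected PDL 15 cells. AUF1 (gene HNRNPD) and HuR (gene ELAVL1) are RNA-binding proteins that act on mRNA stability and translation, and the labels give neither the siRNA sequences nor the time after transfection. Each group had 1 library, so no spread within a group and no p-value can be given. Values are in FPKM, which counts fragments relative to transcript length and library size, summed over the annotated transcripts of each gene.

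hnRNPs coat nascent transcripts, and many of them repress the use of nearby splice sites. SR proteins bind exonic enhancers through RNA recognition motifs and recruit spliceosome components through their arginine- and serine-rich domain. The 2 families often act against each other on the same exon. Many of their genes also regulate themselves: a poison exon or a spliced intron puts a stop codon ahead of an exon junction, and nonsense-mediated decay (NMD) then removes the transcript.

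Of the 34 genes, 31 were measured: 17 hnRNP genes, 12 SR genes, CIRBP and RBM3. HNRNPH1, an exon and G-run binding hnRNP, had a transcript whose estimate failed at PDL 55 and is listed at 0 there, beside 168 FPKM with AUF1 siRNA, 145 with HuR siRNA, 99.5 with control siRNA and 248.6 at PDL 15. HNRNPH2 had a mean of 0.593 FPKM, under the minimum of 1. PCBP1, a poly(C)-binding protein, had no row with AUF1 siRNA and is listed at 0 in 3 other libraries. The 31 measured genes are therefore not all members.

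Several facts of the libraries bear on every value. Among the targets, HNRNPD had 20.3 FPKM with AUF1 siRNA, against 61.2 with control siRNA, and ELAVL1 had 9.72 FPKM with HuR siRNA, against 11.8 with control siRNA. The control siRNA library stood apart: its deposited coverage per FPKM was 0.300, against 1.14 to 1.29 in the other 4, and transcripts assembled from its reads held 80.4% of its FPKM times length, against 25.1% to 29%. Comparisons with control siRNA are therefore given beside those with untransfected PDL 15 cells. Fibroblast markers (7 of 10 measured) summed to between 467 and 1418 FPKM over the 5 libraries, 509 at PDL 55 and 1418 at PDL 15. Epithelial markers summed to 6.28 to 17.9, endothelial to 4.71 to 14.6 and blood to 0.290 to 4.67 FPKM. Of these, 3 of 10 epithelial, 1 of 6 endothelial and 1 of 6 blood markers had a mean of at least 1 FPKM. Under 1 in every library were 6 epithelial (EPCAM and CDH1 among them), 3 endothelial (CDH5 among them) and 4 blood markers (CD3E and HBB among them). In bulk RNA, fewer cells of a type and less RNA per cell cannot be told apart. Strand was not stated, so reads of overlapping or antisense genes cannot be separated. Separately, the values of HNRNPA1 are uncertain because it has many processed pseudogenes.

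**Figure D1:**
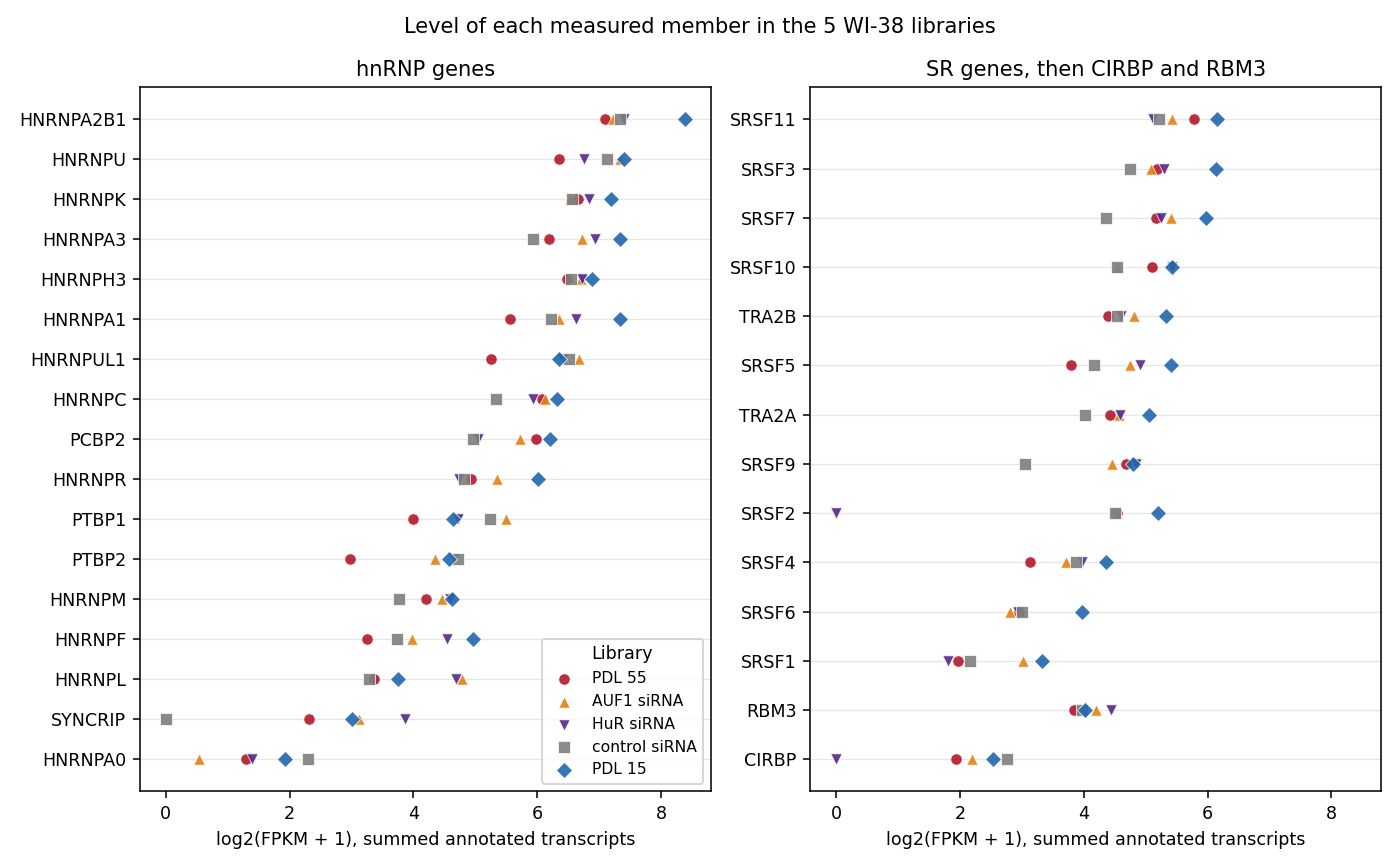
Level of the 31 measured genes, as log2(FPKM + 1) of summed annotated transcripts (x axis), 1 symbol per library. PDL 15 (blue diamonds) is the highest library for 22 of the 31 genes, as for 34.3% of all genes tested (16 of 31 and 19.7% relative to the median gene), and the symbols at 0 are SYNCRIP with control siRNA, SRSF2 with HuR siRNA and CIRBP with HuR siRNA.

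The first question of the design was how cells at PDL 55 differed from cells at PDL 15. All 31 measured genes had a lower FPKM at PDL 55, as did 68.2% of all genes tested. For 27 of the 31 the summed 95% bounds of the 2 libraries did not overlap, and 43.1% of all genes were lower with bounds apart. These bounds come from the deposited bounds of each transcript and cover estimation within a library only. All 12472 genes tested had a median log2 ratio of -0.32 on the log2(FPKM + 1) scale, so ratios below are given relative to that median gene. On this scale 26 of the 31 lay below the median gene (83.9%, where 50% of all genes do by construction). At least 2-fold lower were 5 of 31 (16.1%), against 10.2% of all genes, and at least 2-fold higher were 0 of 31, against 9.45% of all genes. The hnRNP genes had a median log2 ratio of -0.37 and the SR genes of -0.55.

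The 3 hnRNP genes past 2-fold encode a splicing repressor, a G-run binding protein and a polypyrimidine tract protein. HNRNPA1 (ENSG00000135486, hg19 chromosome 12, 54674488 to 54679028), which represses many exons and is among the most abundant hnRNPs, had 46.4 FPKM at PDL 55, 80.3 with AUF1 siRNA, 97.8 with HuR siRNA, 73.4 with control siRNA and 160 at PDL 15. PDL 55 was the lowest library and PDL 15 the highest, with the other 3 between them. The log2 ratio of PDL 55 to PDL 15 was -1.44, and -0.70 when control siRNA took the place of PDL 15.

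HNRNPF (ENSG00000169813, chromosome 10, 43881065 to 43904633), which binds G-runs near splice sites, had 8.48 FPKM at PDL 55, 14.7 with AUF1 siRNA, 22.2 with HuR siRNA, 12.3 with control siRNA and 30.2 at PDL 15. PDL 55 was again the lowest, but its ratio to control siRNA was only -0.53, beside -1.39 to PDL 15. PTBP2 (ENSG00000117569, chromosome 1, 97187221 to 97280349), a polypyrimidine tract-binding protein best known from neurons, had 6.85 FPKM at PDL 55, 19.4 with AUF1 siRNA, 24.1 with HuR siRNA, 25.5 with control siRNA and 22.9 at PDL 15. Here PDL 55 stood apart from all 4 PDL 15 libraries, which lay close together, and the log2 ratio was -1.28 to PDL 15 and -1.80 to control siRNA. PTBP2 stayed at least 2-fold lower in all 12 alternatives that gave a value, and HNRNPA1 and HNRNPF in 12 of 13.

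**Figure D2:**
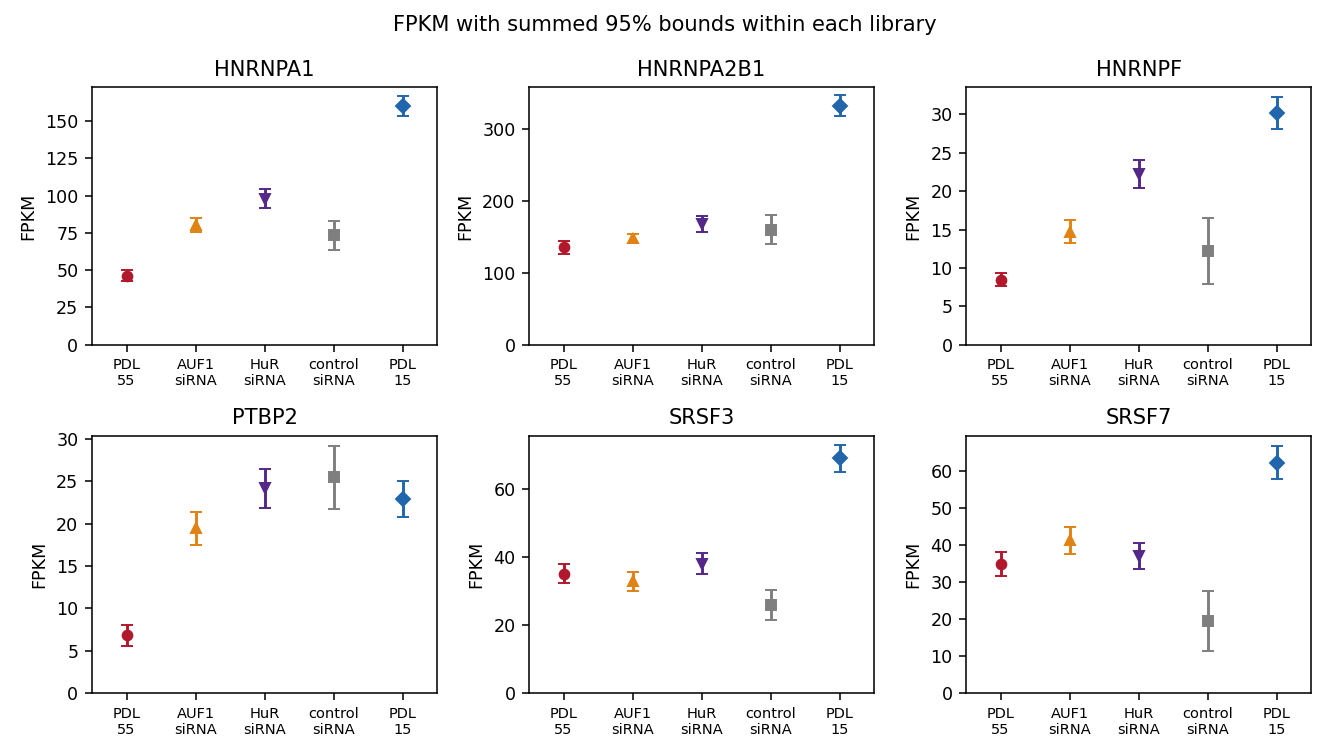
FPKM of 6 genes (y axis, from 0) in each library, with bars for the summed deposited 95% bounds, which hold no spread between cultures. PTBP2 is low at PDL 55 only (6.85 FPKM), while HNRNPA2B1, SRSF3 and SRSF7 are high at PDL 15 only (333, 69.1 and 62.2 FPKM).

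The measured hnRNP genes with the highest mean FPKM were HNRNPA2B1, HNRNPU and HNRNPK, and none passed 2-fold against the median gene. Between PDL 55 and PDL 15, HNRNPA2B1 and HNRNPU lay further below that gene than the hnRNP median of -0.37, and HNRNPK did not. HNRNPA2B1, a relative of HNRNPA1 that also sorts RNA for transport, had 136 FPKM at PDL 55, 148 with AUF1 siRNA, 168 with HuR siRNA, 160 with control siRNA and 333 at PDL 15. PDL 15 was high and the other 4 libraries were alike, so the log2 ratio was -0.97 to PDL 15 and -0.29 to control siRNA. HNRNPU, a scaffold-attachment protein, had 80.4 FPKM at PDL 55, 161 with AUF1 siRNA, 107 with HuR siRNA, 139 with control siRNA and 169 at PDL 15, with ratios of -0.74 to PDL 15 and -0.83 to control siRNA. HNRNPK, which binds C-rich sequences, had 99.6 FPKM at PDL 55, 91.7 with AUF1 siRNA, 114 with HuR siRNA, 93.7 with control siRNA and 145 at PDL 15, and its ratio to PDL 15 was -0.21. HNRNPUL1 and PTBP1, the widely expressed relative of PTBP2, were lower at PDL 55 than in all 4 other libraries: HNRNPUL1 had 37.0 FPKM at PDL 55, against 80.5 to 101 elsewhere, and PTBP1 had 14.9 FPKM at PDL 55, against 23.8 to 44.1. HNRNPA3 had 71.9 FPKM at PDL 55, 105 with AUF1 siRNA, 122 with HuR siRNA, 59.97 with control siRNA and 161 at PDL 15, and HNRNPR, whose protein resembles SYNCRIP, had 29.5 FPKM at PDL 55, 39.8 with AUF1 siRNA, 25.6 with HuR siRNA, 27.2 with control siRNA and 63.4 at PDL 15. Both were highest at PDL 15, with ratios of -0.83 and -0.75, but neither was low at PDL 55 against control siRNA, where the ratios were 0.21 and 0.07. HNRNPH3 and HNRNPM, at -0.08 and -0.09, lay near the median gene. At the other end, HNRNPC, whose protein binds uridine tracts, and PCBP2 lay just above the median gene, at 0.09 and 0.10.

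The 2 SR genes past 2-fold at PDL 55 rest on which transcripts are summed. SRSF5 had 12.8 FPKM at PDL 55, 25.7 with AUF1 siRNA, 28.9 with HuR siRNA, 16.9 with control siRNA and 41.4 at PDL 15, a log2 ratio of -1.29 to PDL 15. With the transcripts assembled from the reads added, it had 52.0 FPKM at PDL 55 and 58.8 at PDL 15, and the ratio turned to 0.14. SRSF1, an oncogenic SR protein that binds purine-rich enhancers, had 2.89 FPKM at PDL 55, 7.13 with AUF1 siRNA, 2.48 with HuR siRNA, 3.48 with control siRNA and 9.03 at PDL 15. Its ratio was -1.04, and -0.09 with assembled transcripts. Both calls depend on that choice.

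Other SR genes were lower by less. SRSF3, the smallest SR protein, had 35.1 FPKM at PDL 55, 32.9 with AUF1 siRNA, 38.1 with HuR siRNA, 25.9 with control siRNA and 69.1 at PDL 15. SRSF7, its close relative with a zinc knuckle, had 34.9 FPKM at PDL 55, 41.3 with AUF1 siRNA, 37.0 with HuR siRNA, 19.5 with control siRNA and 62.2 at PDL 15. Both were high at PDL 15 alone. SRSF4 had 7.75 FPKM at PDL 55, against 12.1 to 19.4 FPKM in the other 4 libraries. SRSF6 had 6.74 FPKM at PDL 55, 5.97 with AUF1 siRNA, 6.63 with HuR siRNA, 6.99 with control siRNA and 14.6 at PDL 15. SRSF4 was thus low at PDL 55 and SRSF6 high at PDL 15. TRA2B had 19.9 FPKM at PDL 55, 26.96 with AUF1 siRNA, 23.3 with HuR siRNA, 22.15 with control siRNA and 39.0 at PDL 15, a ratio of -0.61. TRA2A had 20.5 FPKM at PDL 55 and 32.1 at PDL 15, a ratio of -0.30. SRSF11 had 54.0 FPKM at PDL 55, 41.9 with AUF1 siRNA, 33.8 with HuR siRNA, 35.98 with control siRNA and 69.7 at PDL 15, which put PDL 55 second. With assembled transcripts it had 54.0 FPKM at PDL 55, 61.6 with AUF1 siRNA and 117 at PDL 15. That put AUF1 siRNA above PDL 55, and the ratio to PDL 15 of -0.04 became -0.79. SRSF9 (24.6 FPKM at PDL 55, 26.6 at PDL 15) and SRSF10 (33.5 at PDL 55, 42.0 at PDL 15), a splicing repressor when dephosphorylated, had overlapping bounds. Of the cold-inducible pair, CIRBP had 2.84 FPKM at PDL 55 and 4.81 at PDL 15, a ratio of -0.27 that became -2.41 with assembled transcripts (5.57 against 42.4 FPKM), and RBM3 had 13.3 FPKM at PDL 55 and 15.2 at PDL 15, a ratio of 0.14.

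Genes that work with these factors were read from lists chosen with earlier results in view. Of all genes, 10.2% were at least 2-fold lower and 9.45% at least 2-fold higher at PDL 55. Of 17 measured other hnRNP-like genes, 1 was at least 2-fold lower (HNRNPD, 42.3 FPKM at PDL 55 and 119 at PDL 15). In that list 1 was higher (TIA1, listed at 0 at PDL 15), and the median was -0.09. Of 9 SR kinases and phosphatases, 0 were lower and 1 was higher (SRPK2, listed at 0 at PDL 15), with a median of 0.05. Of 18 SR-related genes, RBM39 alone was lower (58.9 FPKM at PDL 55 and 149 at PDL 15, a ratio of -1.003), and the median was -0.25. Of 36 core spliceosome genes, 0 were lower and 2 were higher, PRPF19 and SF3B4, with a median of -0.12. Of 14 NMD genes, 0 were lower and 1 was higher (SMG5, listed at 0 at PDL 15), with a median of -0.12. By comparison 11 of 12 proliferation genes were at least 2-fold lower at PDL 55, with a median of -1.63, among them RRM2 (0.962 FPKM at PDL 55 and 36.2 at PDL 15). Their part in the lower hnRNP and SR values was not tested.

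The SR genes were low in every library set against untransfected PDL 15 cells, and not at PDL 55 alone. SR genes with a lower FPKM than PDL 15 numbered 12 of 12 at PDL 55, 12 of 12 with AUF1 siRNA, 11 of 12 with HuR siRNA and 12 of 12 with control siRNA. Of all genes, 68.2% were lower than PDL 15 at PDL 55, 61.9% with AUF1 siRNA, 55.1% with HuR siRNA and 69.4% with control siRNA. In all 4 libraries at once, 11 of 12 SR genes, 11 of 17 hnRNP genes and 34.3% of all genes had a lower FPKM. The SR median log2 ratios relative to the median gene were -0.55 at PDL 55, -0.43 with AUF1 siRNA, -0.65 with HuR siRNA and -0.58 with control siRNA. On that scale 10 of 12 SR genes lay below the median gene in all 4 libraries (83.3%), as did 6 of 17 hnRNP genes (35.3%) and 19.7% of all genes. The 4 ratios share the PDL 15 library, so 1 library decides this pattern. Against control siRNA in place of PDL 15, PDL 55 had an SR median of 0.17 and an hnRNP median of -0.12.

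**Figure D3:**
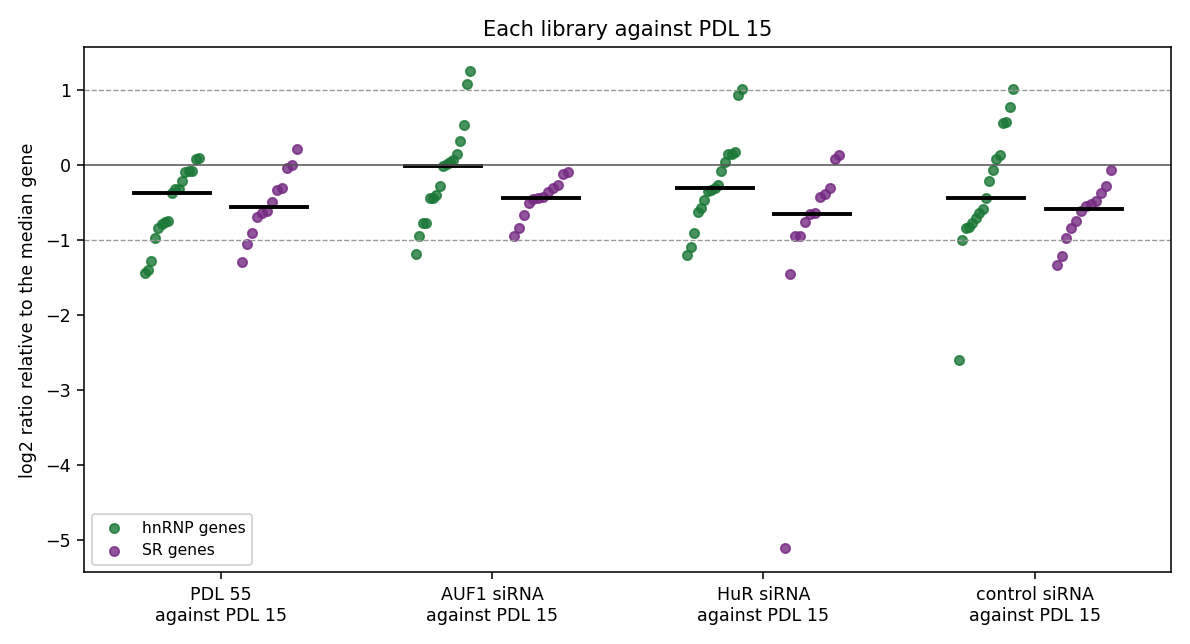
Log2 ratio of each of the other 4 libraries to PDL 15, relative to the median gene (y axis), for 17 hnRNP and 12 SR genes (points, sorted within each column), with black bars at the medians and dashed lines at 2-fold. The SR medians lie between -0.43 and -0.65 in all 4 columns, and the lowest points are SRSF2 with HuR siRNA and SYNCRIP with control siRNA, both listed at 0.

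The SR count depends on which transcripts are kept. It was 9 of 12 with assembled transcripts added (19.8% of all genes), 8 of 12 on fragment mass (20.2%), and 8 of 12 without transcripts flagged as having few data (19.9%). With transcripts typed as protein-coding only it was 2 of 12, against 20% of all genes, so the SR genes did not stand out there. The SR median of PDL 55 to PDL 15 then became 0.28. That alternative drops transcripts typed NMD (20.8% to 26.1% of SR FPKM over the 5 libraries) or processed transcript (10.2% to 19%), and those whose identifier GENCODE 29 no longer holds (8.40% to 16.3% of SR and 41.7% to 48.7% of hnRNP FPKM). Protein-coding transcripts held 51% of SR FPKM at PDL 55, against 38.6% at PDL 15. The share was 47.3% with AUF1 siRNA, 49.5% with HuR siRNA and 50.7% with control siRNA, so PDL 15 alone stood apart.

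Within a library, the 2 families can be compared without scaling between libraries. The 12 SR genes summed to 275 FPKM at PDL 55, 282 with AUF1 siRNA, 277 with HuR siRNA, 211 with control siRNA and 461 at PDL 15. The 17 hnRNP genes summed to 780 FPKM at PDL 55, 1085 with AUF1 siRNA, 1049 with HuR siRNA, 905 with control siRNA and 1503 at PDL 15. SR genes thus came to 35.3% of hnRNP genes at PDL 55, 26% with AUF1 siRNA, 26.4% with HuR siRNA, 23.3% with control siRNA and 30.6% at PDL 15. PDL 55 was the highest library under all 8 ways of summing that leave out HNRNPH1, with 32.6% to 54.6%, and control siRNA the lowest under 6 of 8. HNRNPH1 is listed at 0 at PDL 55 alone, so a sum that keeps it cannot rank PDL 55. A sum is weighted to abundant genes. HNRNPA2B1, HNRNPU, HNRNPA3 and HNRNPA1 held 333, 168.6, 161.5 and 160 FPKM at PDL 15, and 136, 80.4, 71.9 and 46.4 at PDL 55. The median log2 ratios of PDL 55 to PDL 15, in which each gene counts alike, went the other way, with -0.55 for SR and -0.37 for hnRNP genes. With assembled transcripts those medians were -0.34 and -0.47. No spread can be put on these shares with 1 library each.

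**Figure D4:**
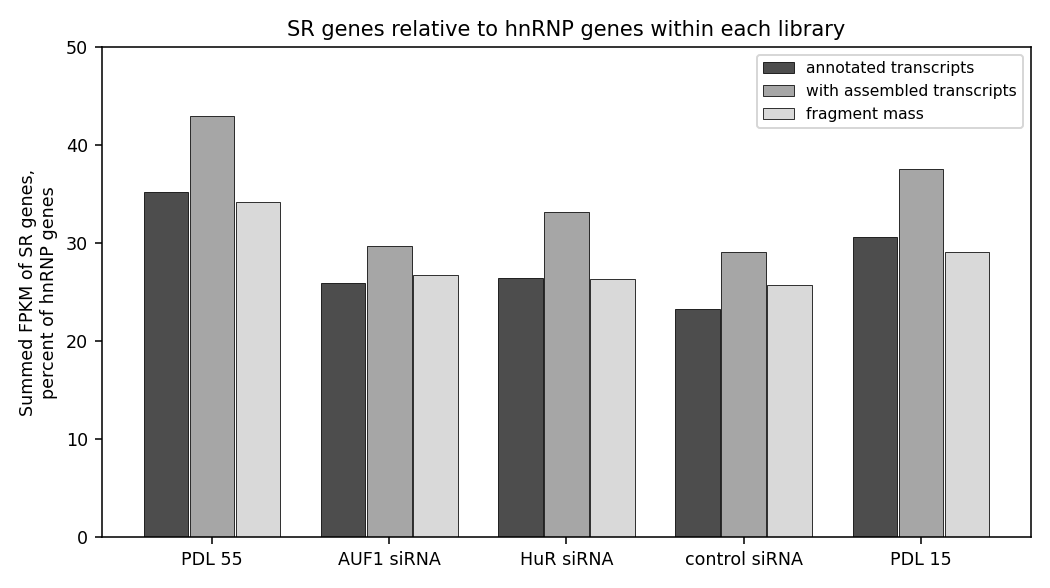
Summed FPKM of 12 SR genes as a percent of that of 17 hnRNP genes in each library (bars from 0). Bars are shown for annotated transcripts, for annotated plus assembled transcripts, and for fragment mass. Fragment mass is FPKM times length, divided for each gene by its FPKM-weighted mean transcript length over the 5 libraries. PDL 55 is highest each time (35.3% on annotated transcripts, against 30.6% at PDL 15).

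The second question was what siRNA against AUF1 or HuR did relative to control siRNA. With AUF1 siRNA, 1 of 31 genes was at least 2-fold lower, against 11% of all genes, and 3 were at least 2-fold higher (9.68%), against 9.96%. With HuR siRNA, 3 were lower (9.68%), against 11.5% of all genes, and 3 were higher, against 10.6%. These shares are near or under the background. The median log2 ratios to control siRNA were 0.06 for hnRNP and 0.12 for SR genes with AUF1 siRNA, and -0.14 for hnRNP and 0.005 for SR genes with HuR siRNA. All genes had medians of 0.19 with AUF1 siRNA and 0.31 with HuR siRNA as deposited, and without taking these out the hnRNP medians were 0.25 and 0.17 and the SR medians 0.30 and 0.31, so the direction of the hnRNP median with HuR siRNA depends on the scaling. The hnRNP medians to PDL 15 were -0.006 with AUF1 siRNA and -0.30 with HuR siRNA. The 5 genes lower with HuR siRNA than at PDL 15 were SRSF1 (-1.44), HNRNPR (-1.19), PCBP2 (-1.08), and SRSF2 and CIRBP, both listed at 0.

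HNRNPA0, a small single-exon hnRNP, was the one gene lower with both siRNAs than with control siRNA. It had 1.45 FPKM at PDL 55, 0.452 with AUF1 siRNA, 1.61 with HuR siRNA, 3.90 with control siRNA and 2.81 at PDL 15. AUF1 siRNA was the lowest library and control siRNA the highest. The log2 ratio to control siRNA was -1.94 with AUF1 siRNA and -1.21 with HuR siRNA. With AUF1 siRNA it also stood at -1.18 to PDL 15 and stayed at least 2-fold lower in all 12 alternatives. The pseudocount of this scale understates the fold of a gene this low. Assembled transcripts that span HNRNPA0 and other genes held 1.26 FPKM with AUF1 siRNA and 0 in every other library. None of the alternatives counts them, so they do not settle the AUF1 siRNA value. The HuR siRNA value was -0.46 to PDL 15.

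The genes higher with both siRNAs than with control siRNA were HNRNPL, SYNCRIP and SRSF9, and each had its lowest value in the control siRNA library. HNRNPL, which binds CA repeats, had 9.25 FPKM at PDL 55, 26.7 with AUF1 siRNA, 24.8 with HuR siRNA, 8.67 with control siRNA and 12.5 at PDL 15. Its ratio to control siRNA was 1.33 with AUF1 siRNA and 1.11 with HuR siRNA, and 0.34 and 0.21 with assembled transcripts. Against PDL 15 it was 1.26 with AUF1 siRNA and 1.02 with HuR siRNA. With assembled transcripts HNRNPL had 32.4 FPKM with AUF1 siRNA, 32.3 with HuR siRNA and 23.2 at PDL 15, so these ratios also depend on that choice. SRSF9 had 24.6 FPKM at PDL 55, 20.9 with AUF1 siRNA, 27.7 with HuR siRNA, 7.25 with control siRNA and 26.6 at PDL 15. Only the control library was low, and with assembled transcripts it held 39.2 FPKM, so the ratios of 1.22 and 1.49 turned to -1.06 and -0.80. Against PDL 15 they were -0.11 and 0.14. SYNCRIP, a cytoplasmic and nuclear hnRNP also called hnRNP Q, is listed at 0 with control siRNA beside 7.66 FPKM with AUF1 siRNA and 13.5 with HuR siRNA, and assembled transcripts put 21.2 FPKM into the control library. SYNCRIP had 3.98 FPKM at PDL 55 and 7.05 at PDL 15. Its ratio to PDL 15 was 0.32 with AUF1 siRNA and 0.935 with HuR siRNA, both under 2-fold.

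With HuR siRNA, SRSF2 and CIRBP are listed at 0. SRSF2, which binds enhancers and is the SR protein long known as SC35, had 22.3 FPKM at PDL 55, 22.2 with AUF1 siRNA, 21.7 with control siRNA and 35.5 at PDL 15. Assembled transcripts gave it 14.2 FPKM with HuR siRNA. CIRBP had 3.55 FPKM with AUF1 siRNA, against 5.77 with control siRNA. Assembled transcripts gave it 34.5 FPKM with HuR siRNA. None of the annotated transcripts of SRSF2 or CIRBP has the failed status, and no fold is given against 0. Both genes, and SYNCRIP, count as at least 2-fold apart through a value listed at 0. They make up 3 of the 6 genes so counted with HuR siRNA against control siRNA. Between the 2 knockdowns, 3 of 31 genes were at least 2-fold higher with AUF1 siRNA than with HuR siRNA (9.68%), against 6.23% of all genes, and 0 were lower, against 6.06%. They were SRSF1 (7.13 against 2.48 FPKM, a ratio of 1.34), SRSF2 and CIRBP. The SRSF1 ratio was 0.10 with 1 transcript per gene. Assembled transcripts that span SRSF1 and other genes held 23.35 FPKM with HuR siRNA and 0 with AUF1 siRNA. They are counted in none of these SRSF1 values, so the SRSF1 call is uncertain.

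Control siRNA itself differed from untransfected PDL 15 cells, with a median over all genes of -0.42 as deposited. At least 2-fold lower were 3 of 31 genes (9.68%), against 11.4% of all genes, and 1 was higher (3.23%), against 13.6%. SRSF7 (ratio -1.21, at least 2-fold lower in all 12 alternatives), SRSF9 and SYNCRIP were lower, and PTBP1 was higher (36.5 FPKM with control siRNA and 23.8 at PDL 15, a ratio of 1.01). All 12 SR genes had a lower FPKM with control siRNA, against 69.4% of all genes, with bounds apart in 12 of 12, against 40.6% of all genes. With assembled transcripts SRSF9 was the other way round, with 39.2 FPKM with control siRNA and 31.6 at PDL 15.

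SR genes carried more of their FPKM on transcripts that GENCODE 29 types as NMD than hnRNP genes did. The share was 23.3% at PDL 55, 23.8% with AUF1 siRNA, 21.0% with HuR siRNA, 20.8% with control siRNA and 26.1% at PDL 15. For hnRNP genes it was 9.73% at PDL 55, 9.29% with AUF1 siRNA, 8.69% with HuR siRNA, 9.33% with control siRNA and 8.78% at PDL 15. Over all genes tested it was 5.04% to 5.88%. Transcripts with a retired identifier have no type, and they held more of the hnRNP than of the SR FPKM, so the hnRNP share is a lower limit to a larger degree. A type is the annotation's and does not measure decay. The following 30-base windows of 6 NMD transcripts (GENCODE 29, GRCh38, transcript strand, stop codon in capitals) show where their reading frame ends ahead of a later exon junction.
SRSF3, ENST00000477442, chr6:36599838-36599867, plus strand: ttctcaccaccctcTGAatctgcattagcc
TRA2A, ENST00000448549, chr7:23521751-23521780, minus strand: aggtcaggatctcgTAGtccatcaagggtt
TRA2B, ENST00000456380, chr3:185931759-185931788, minus strand: agctcaggaataagTGAagctgaaatttga
SRSF10, ENST00000473858, chr1:23971942-23971971, minus strand: agttcttcacgctaTGAtgattatgacaga
HNRNPA2B1, ENST00000360787, chr7:26192503-26192532, minus strand: ggaggagccgatacTGAgcttcttcctatt
HNRNPK, ENST00000472778, chr9:83974556-83974585, minus strand: ttgagtatcagtgcTGAtattgaaacaatt
In SRSF3 the stop lay in exon 4 of 7 and 548 bases ahead of the last junction, in TRA2B in exon 2 of 10 and 1015 bases ahead, and in TRA2A 57 bases ahead. The lengths of these 6 transcripts in the files equal those in GENCODE 29, except SRSF3, with 1094 and 1095 bases. The NMD transcript of SRSF2, the most abundant among SR genes at PDL 15 (31.9 FPKM), is not shown because its window spans an exon junction and its length differs, with 1341 bases in the files and 1357 in GENCODE 29.

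For SRSF3 the NMD transcript held 45.0% of FPKM at PDL 55, 49.5% with AUF1 siRNA, 54.0% with HuR siRNA, 39.2% with control siRNA and 45.5% at PDL 15. Its level was 15.8 FPKM at PDL 55 and 31.4 at PDL 15, so it was lower together with the coding transcript (19.3 and 37.6 FPKM) and the share was nearly the same. For SRSF2 the share was 83.2% at PDL 55, 86.2% with AUF1 siRNA, 82.7% with control siRNA and 89.8% at PDL 15.

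TRA2A and TRA2B are SR-like proteins that bind GAA-rich enhancers. TRA2B carried 20.9% of FPKM on NMD transcripts at PDL 55, 35.5% with AUF1 siRNA, 32.5% with HuR siRNA, 0% with control siRNA and 33.6% at PDL 15. Its protein-coding share was 40.9% at PDL 55, 10.5% with AUF1 siRNA and 27.0% with control siRNA, while the HuR siRNA and PDL 15 libraries list its coding transcripts at 0. TRA2A ranged only from 35.8% with control siRNA to 51.6% with AUF1 siRNA. SRSF6 carried 73.9% at PDL 55, 64.2% with AUF1 siRNA, 100% with HuR siRNA, 32.5% with control siRNA and 100% at PDL 15, on a transcript listed with 3951 bases in the files and 1680 in GENCODE 29, so its window is not shown.

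Among hnRNP genes, HNRNPA2B1 had another split among its transcripts with AUF1 siRNA. Its NMD transcript held 42.3% of FPKM with AUF1 siRNA, against 22.9% to 25.6% in the other 4 libraries. Its retained-intron transcript, of 482 bases, is listed at 0 with AUF1 siRNA and held 34.6% at PDL 55, 43.0% with HuR siRNA, 41.4% with control siRNA and 34.2% at PDL 15. HNRNPK held between 36.3% at PDL 15 and 48.6% with control siRNA on its NMD transcript. HNRNPU had a retained-intron share of 42.6% with control siRNA and 0% in the other 4, and HNRNPA3 had 0% with control siRNA and 18.6% to 31.2% in the others. SRSF7 had 21.7% on a retained intron with control siRNA only. Short reads divide a gene's signal among overlapping transcripts, so a share at 0 or 100% may reflect that division, and its part was not tested.

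**Figure D5:**
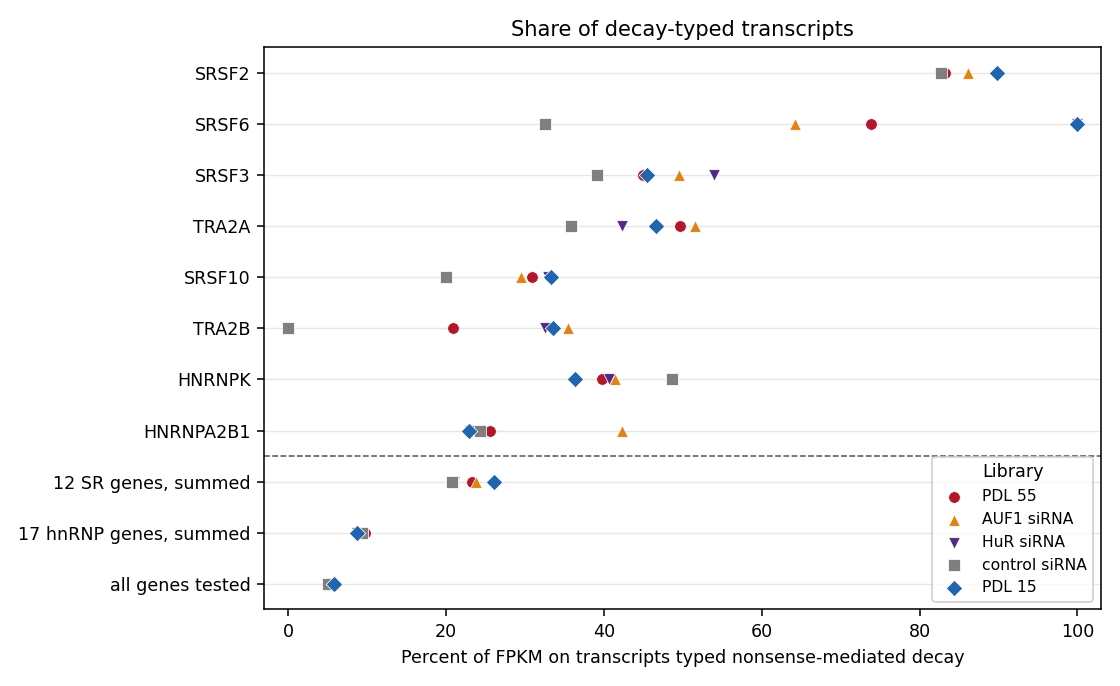
Percent of FPKM on transcripts typed NMD (x axis) for 8 genes, for 12 SR genes summed, for 17 hnRNP genes summed and for all genes tested, 1 symbol per library. SR genes lie at 20.8% to 26.1%, above hnRNP genes at 8.69% to 9.73%, and SRSF2 has no symbol for HuR siRNA because it is listed at 0 there.

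Promoters were read from RefSeq (GRCh38.p14), from 250 bases before to 50 after the start of transcription, for 31 of the 34 genes. HNRNPA1, SRSF2 and TRA2A were not matched. Motifs were searched on both strands, and matches of different motifs may share bases. The CCAAT box, spelled by its name, was found in 11 of 19 hnRNP and 1 of 10 SR promoters, in 35.7% of all 27305 promoters and in 36.8% of the 8232 that belong to genes tested. The E-box, spelled CACGTG, was found in 6 of 19 hnRNP and 0 of 10 SR promoters, in 7.43% of all and in 10.1% of those of genes tested. The GC box, spelled GGGCGG, was found in 15 of 19 hnRNP and 5 of 10 SR promoters, in 44.6% of all and in 69.2% of those of genes tested. The 250 bases before the start of HNRNPF and SRSF7 are shown because HNRNPF was at least 2-fold lower at PDL 55 and SRSF7 with control siRNA, with matches of those motifs and of the ETS motif, spelled CCGGAAG, in capitals.
HNRNPF, chr10:43408858-43409107, minus strand: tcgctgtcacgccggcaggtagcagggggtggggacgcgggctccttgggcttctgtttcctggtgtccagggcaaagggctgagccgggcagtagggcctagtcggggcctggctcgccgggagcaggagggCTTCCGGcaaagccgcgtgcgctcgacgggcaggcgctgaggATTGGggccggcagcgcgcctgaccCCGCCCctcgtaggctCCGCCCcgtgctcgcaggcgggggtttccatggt
SRSF7, chr2:38751495-38751744, minus strand: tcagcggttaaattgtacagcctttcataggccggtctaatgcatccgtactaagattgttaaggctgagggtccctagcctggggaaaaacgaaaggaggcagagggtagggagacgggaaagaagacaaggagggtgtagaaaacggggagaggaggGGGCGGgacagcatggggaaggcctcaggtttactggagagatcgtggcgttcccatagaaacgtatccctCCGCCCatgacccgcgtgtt
HNRNPF holds a CCAAT box, 2 GC boxes and an ETS match, and SRSF7 holds 2 GC boxes and no CCAAT box. A match to letters is a description and shows no binding.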

How the data were processed

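Per the labels' protocols, ribosomal RNA was depleted, the rest was amplified by a NuGEN kit that does not need a polyA tail, and libraries ran on an Illumina Genome Analyzer. Per the submitters' processing notes, TopHat2 2.0.6, Cufflinks 2.0.2 and Cuffdiff were used, with hg19 as the build. For each library the authors deposited a table that gives, per the file headers, an FPKM value, its 95% bounds and a status for each transcript. The deposited coverage signal was used only to compare libraries. The sources used here give neither read numbers nor strand nor annotation release, so depth is unknown.

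Members and gene lists were chosen with earlier results of these data known. Of 160485 annotated transcripts, 95.6% were assigned to a gene by GENCODE 29, a gene identifier in the file or position. FPKM and bounds were summed per gene. Genes with a failed transcript, without a row in every library or with a mean FPKM under 1 were left out, which left 12472. Ratios are log2((FPKM + 1)/(FPKM + 1)) relative to the median gene, with 2-fold as the limit. The pseudocount understates changes of low genes. No p-value was computed. Members with a value in every library are those at least 2-fold apart, the 3 with the highest mean of each class, and those whose NMD or retained-intron share moved by 20 points. The ratio step was tested on simulated data. Python 3.11.15 with pandas 2.3.3, numpy 2.4.6 and matplotlib 3.10.9 was used.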

Additional observations from a re-analysis of the deposited data

How the results depend on the processing

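The limits are these. There was 1 library per group and no measure of spread, the depth is unknown, the control siRNA library had low coverage per FPKM, and the split of FPKM among transcripts decides several values. No paired analysis was possible because the labels give no replicate numbers and each group has 1 library. Leaving out a library leaves no comparison. One of the alternatives, leaving out members listed at 0, was chosen after seeing the data. The cause of the changes below was not tested.

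For PDL 55 against PDL 15, 5 genes were at least 2-fold apart, and the count became 8 without transcripts flagged as having few data and with 1 transcript per gene, 3 on fragment mass, 11 with no filter and 12 as deposited. The SR median of -0.552 became 0.281 on protein-coding transcripts and 0.175 against control siRNA. SRSF5 turned to 0.142 with assembled transcripts, and SRSF1 to 0.281 on protein-coding transcripts.

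For AUF1 siRNA against control siRNA, 4 genes became 9 without few-data transcripts, 15 on protein-coding transcripts and 14 with 1 transcript per gene. SYNCRIP turned to -0.546 and SRSF9 to -1.062 with assembled transcripts, and SRSF9 to -0.113 against PDL 15. For HuR siRNA against control siRNA, 6 genes became 3 with assembled transcripts, with a mean FPKM of at least 5 and without members listed at 0, 13 on protein-coding transcripts and 12 with 1 transcript per gene. The SR median of 0.005 became -0.645 against PDL 15. SYNCRIP turned to -0.925, SRSF9 to -0.797 and CIRBP to 1.666 with assembled transcripts, and HNRNPL to -1.807 on protein-coding transcripts.

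For AUF1 siRNA against HuR siRNA, 3 genes became 5 without few-data transcripts, 7 on protein-coding transcripts and 1 without members listed at 0, and CIRBP turned to -0.665 with assembled transcripts. For control siRNA against PDL 15, 4 genes became 7 with assembled transcripts, 11 without few-data transcripts and with 1 transcript per gene, 12 on protein-coding transcripts, and 13 with no filter and as deposited. The SR median of -0.578 became 0.467 on protein-coding transcripts. SRSF9 turned to 0.711 with assembled transcripts and 3.462 without few-data transcripts, and with 1 transcript per gene SYNCRIP turned to 0.494 and PTBP1 to -0.293. The SR share of hnRNP FPKM became 54.63% at PDL 55 and 39.98% with control siRNA on protein-coding transcripts. The hnRNP median stayed below 0 in every alternative run for PDL 55 against PDL 15 (-0.693 to -0.118) and for control siRNA against PDL 15 (-0.853 to -0.321). It took both signs for AUF1 siRNA against control siRNA (-0.049 to 0.444), HuR siRNA against control siRNA (-0.299 to 0.280) and AUF1 siRNA against HuR siRNA (-0.151 to 0.296).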
